A study of Homo sapiens with 204 samples.

Results

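The genes described here are 10 factors that act on stalled or collided ribosomes, namely NEMF, LTN1, PELO, HBS1L, GTPBP1, GTPBP2, ASCC3, GCN1, GIGYF2 and ABCE1. They were chosen by name, and their Ensembl identifiers were matched to gene symbols: all 10 are among the 41379 genes of the RNA-seq table and the 19217 genes of the Ribo-seq table. All 10 also passed the filter on low counts, which left 15526 genes in RNA-seq and 12793 in Ribo-seq. Each of the 75 ribosomal proteins analysed here was depleted in A549 cells, an established line from a human lung carcinoma. The question was how the transcriptome and the translatome of each depleted culture differed from control cells. Cells received an siRNA at 40 nM for 24 h, either against 1 ribosomal protein or non-targeting, and were treated with cycloheximide, which halts elongating ribosomes, before lysis. From every lysate, a share went to RNA-seq, which counts mRNA, and another to Ribo-seq, which counts ribosome-protected fragments (footprints).

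Of the 75 targets, 44 are proteins of the large (60S) subunit and 31 of the small (40S) subunit. Each assay has 91 knockdown libraries (48 large-subunit, 43 small-subunit) and 11 controls with non-targeting siRNA. Only 16 targets have 2 libraries; the other 59 have 1 library and therefore no spread of their own. The labels do not say whether libraries of 1 target came from separate cultures, so the spread behind tests of single targets could be technical only; tests over all knockdowns take their spread from libraries of different targets as well. As a model the design is limited to 1 cell line, 1 time and siRNA-treated cultures without rescue.

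When a ribosome stalls, the ribosome behind it runs into it, and the collided pair is what the cell recognises as a fault. GCN1 binds collided ribosomes and activates the kinase GCN2; GIGYF2, with the cap-binding protein EIF4E2, blocks new initiation on the faulty mRNA; and ASCC3, the helicase of the ASC-1 complex, pulls the leading ribosome apart. PELO, a relative of the termination factor eRF1, enters the empty A site of a stalled ribosome with the GTPase HBS1L, GTPBP1 and GTPBP2 are related GTPases of stalled ribosomes, and ABCE1 is the ATPase that splits the subunits. NEMF then binds the large subunit that still holds an unfinished peptide, extends the peptide with alanine tails and recruits LTN1, the ubiquitin ligase that marks it for degradation.

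Levels are given as CPM, the count of a gene per 1e6 counts of its library after TMM scaling of the library sizes. RNA-seq libraries held 18796932 to 63569574 counts and Ribo-seq libraries 7771312 to 57215307, so that a count of 0 allows up to 0.160 and 0.386 CPM before scaling in the shallowest library of each. Every member was well above these limits: the lowest count of any member in any library was 112 in RNA-seq and 128 in Ribo-seq. The siRNA target was below all controls in 91 of 91 RNA-seq libraries, where it was at 1.55% to 15.4% (median 3.98%) of its level in controls. Of 8 markers of A549 and lung cells, 4 had a control median over 10 CPM and 4 a median under 1 CPM; 3 of 6 epithelial markers had a median over 10 CPM. Markers of blood cells and of endothelium were near 0, with summed levels of at most 0.210 and 0.365 CPM in any knockdown library. Fibroblast markers summed to between 13.6 and 31.5 CPM in controls and between 5.87 and 54.1 CPM in knockdowns.

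Before the results, a feature of the controls has to be stated. Library titles fall into a set with sample or replicate numbers (6 controls, 16 targets) and a set without (5 controls, 59 targets), and this title set is a term in every test over all libraries. The columns of the tables stand in 3 stretches, here run 1 (4 controls, 30 knockdown libraries), run 2 (5 controls, 45 knockdowns) and run 3 (2 controls, 16 knockdowns); what the runs stand for is not given. Among the 4 controls of run 1, the RNA-seq levels of NEMF were 23.1 and 23.3 CPM in the pair labelled 11 and 9.21 and 4.36 CPM in the pair labelled 20. On CPM plus 0.5, the highest of these 4 controls exceeded the lowest 4.89 times for NEMF, 5.05 times for LTN1, 4.03 times for HBS1L, 4.09 times for ASCC3 and 3.79 times for ABCE1, where the median gene spread 1.59 times. In Ribo-seq of the same lysates these 5 genes spread 1.08 to 1.25 times (median gene 1.22). The control labelled 20_2 was the low one in RNA-seq each time. Values without it are given where they differ.

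Across all knockdowns ASCC3 was the member that moved most: it rose in mRNA and in footprints. PELO fell in both, GTPBP2 fell in mRNA, GIGYF2 rose in mRNA, and NEMF rose in footprints. GIGYF2 lost its call with the run as a term, and among single runs PELO mRNA was called in run 1 alone, as given below. In RNA-seq 2 of the 10 members were called higher (edgeR quasi-likelihood test, Benjamini-Hochberg adjusted p under 0.05 over all genes tested) and 2 lower, where 13.4% of all genes were called higher and 17.2% lower. In Ribo-seq 2 were higher and 1 lower, beside 13.2% and 13.5% of all genes. The members' median log2 fold change was -0.17 in RNA-seq and -0.11 in Ribo-seq, beside -0.03 and -0.0036 over all genes tested. For translation efficiency, the change of footprints relative to mRNA, no member was called in the edgeR interaction test, and 1 member (NEMF) had an unadjusted p under 0.05; 0.329% of genes were called higher and 0.024% lower. The limma fit of the ratio per lysate, which keeps the pairing of the aliquots, also called none.

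**Figure D1:**
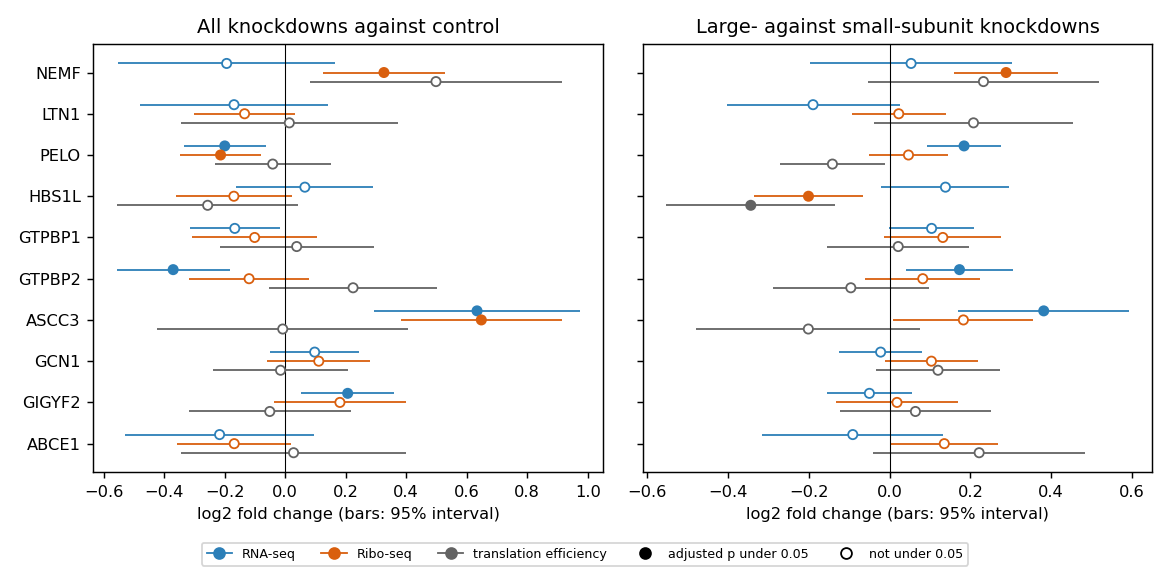
Log2 fold change of each of the 10 members, all knockdowns against controls on the left and large- against small-subunit knockdowns on the right; blue is RNA-seq, orange Ribo-seq and grey translation efficiency, points are estimates, bars are 95% confidence intervals, and filled points have an adjusted p under 0.05. On the left ASCC3 stands at 0.63 in RNA-seq and 0.65 in Ribo-seq, NEMF at 0.33 in Ribo-seq, and no member is filled for translation efficiency.

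ASCC3 mRNA in the controls ran from 12.5 to 52.7 CPM in run 1 (median 37.6), from 55.0 to 80.9 CPM in run 2 (median 70.5), and was 83.1 and 77.6 CPM in run 3. In knockdowns the lowest, median and highest levels were 18.7, 70.8 and 115 CPM in run 1, 58.7, 120 and 190.3 CPM in run 2, and 76.6, 113 and 187 CPM in run 3. The groups overlapped, and 23 of 30, 38 of 45 and 15 of 16 knockdown libraries exceeded every control of their run, beside 25.7%, 25.9% and 42.6% of all gene-by-library values. ASCC3 mRNA rose by a log2 fold change of 0.63 ± 0.17 (SE; edgeR quasi-likelihood test, adjusted p = 0.00295), and by 0.80 ± 0.17 with the run as a term (adjusted p = 7.6e-05). Within single runs the value was 0.99 in run 1 (edgeR adjusted p = 0.0549), 0.76 in run 2 (0.0120) and 0.56 in run 3 (0.271); in run 1 without control 20_2 it was 0.71 (0.314).

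Footprints on ASCC3 had tighter controls: 67.3, 79.7, 70.2 and 73.8 CPM in run 1, 88.3 to 99.1 CPM in run 2, and 111 and 106 CPM in run 3. Knockdown medians were 117, 159 and 160.5 CPM. Above all controls of their run were 29 of 30, 42 of 45 and 15 of 16 libraries, where 33.8%, 26.2% and 43.0% of all values were. The log2 fold change was 0.65 ± 0.14 (SE; edgeR quasi-likelihood adjusted p = 0.000126), and it was 0.79 in run 1 (adjusted p = 0.00962), 0.71 in run 2 (0.0372) and 0.57 in run 3 (0.302). Run 1 without control 20_2 gave 0.80 (edgeR adjusted p = 0.0306); the Ribo-seq library of that lysate was not low. ASCC3 footprints were highest after loss of RPL3 (263 CPM) and RPL4 (256 CPM), both proteins of the large subunit, and lowest after loss of RPL23 (60.5 CPM).

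**Figure D2:**
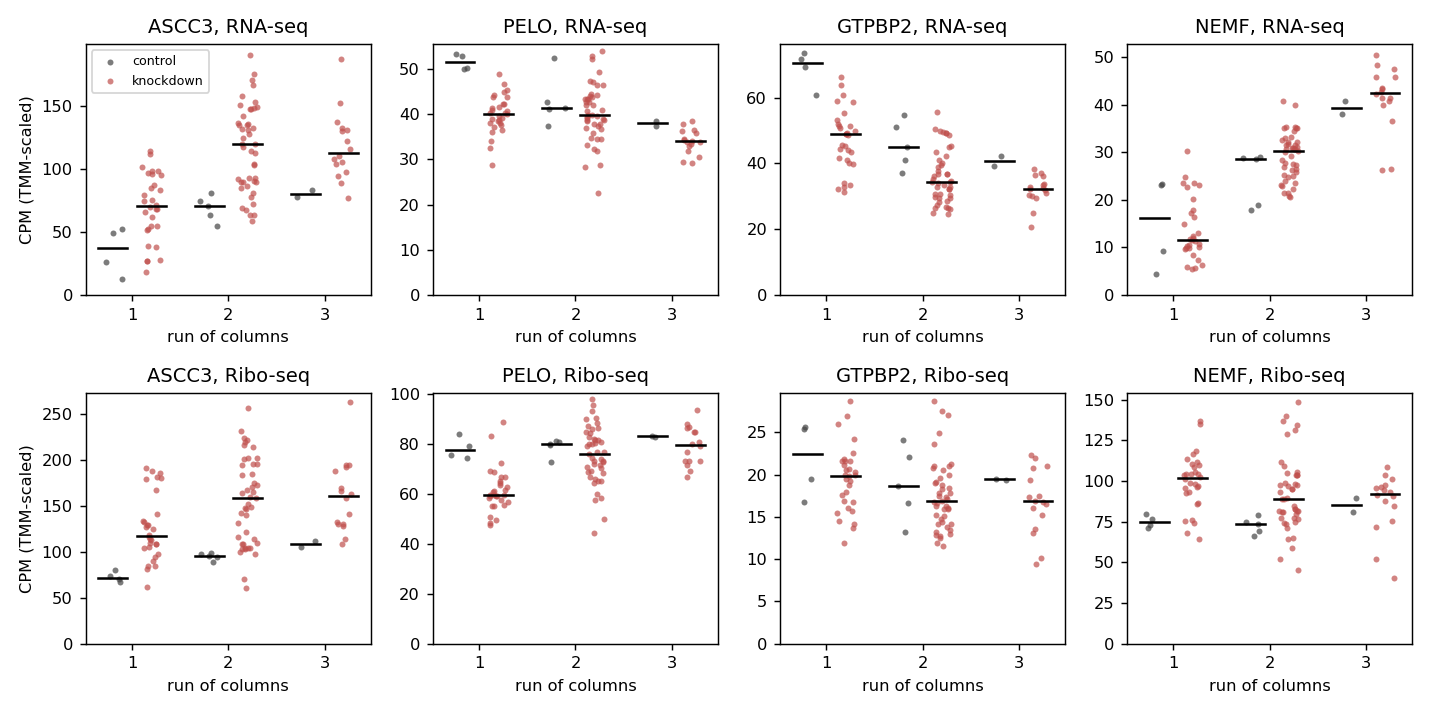
CPM (TMM-scaled, linear axis from 0) of ASCC3, PELO, GTPBP2 and NEMF in every library, RNA-seq above and Ribo-seq below, by run of columns; grey points are control libraries, red points knockdown libraries, and bars are medians. In Ribo-seq nearly all knockdown libraries of ASCC3 sit above the controls of their run (29 of 30 in run 1), while in RNA-seq of run 1 the controls themselves spread from 12.5 to 52.7 CPM.

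PELO mRNA was 50.1, 50.0, 52.9 and 53.2 CPM in the controls of run 1, and all 30 knockdown libraries of that run lay below them, from 28.8 to 48.9 CPM (median 40.1), where 26% of all values lay below the controls. In run 2 the controls had 37.3 to 52.3 CPM (median 41.4) and the knockdowns 22.6 to 53.9 CPM (median 39.8), so that both groups overlapped and 12 of 45 libraries were below all controls (background 27%). In run 3, with controls at 38.5 and 37.4 CPM, 14 of 16 knockdown libraries were lower (background 44.5%). PELO mRNA fell by 0.20 ± 0.069 on the log2 scale over all libraries (SE; edgeR quasi-likelihood adjusted p = 0.0197). The fall was 0.37 ± 0.089 in run 1 (edgeR adjusted p = 0.00506), and the values in runs 2 and 3 were -0.10 (0.608) and -0.16 (0.526).

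PELO footprints followed the same division. The 4 controls of run 1 had 74.5 to 84.1 CPM and 28 of 30 knockdown libraries lay below them, with a median of 59.8 CPM (background 34%). In run 2 the knockdown median was 76.2 CPM against 80.2 CPM in controls, with 17 of 45 libraries below all controls (background 25.9%) and 15 above; in run 3, 10 of 16 were below (background 42.7%) and 6 above. The log2 fold change was -0.21 ± 0.069 (SE; edgeR quasi-likelihood adjusted p = 0.0139), -0.35 in run 1 (0.0209) and -0.06 in run 2 (0.828). With the run as a term it was -0.17 (edgeR adjusted p = 0.0425), and -0.16 (0.0778) when control 20_2 was also left out. The lowest PELO levels in both assays were those of the RPL23 knockdown, a single library, at log2 ratios of -0.91 in RNA-seq and -0.82 in Ribo-seq to the controls of its title set. PELO lies on chromosome 5 within the gene ITGA1, and since the strand used in counting is not given in the sources used here, reads of the overlapping genes cannot be told apart.

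HBS1L, the GTPase that carries PELO, had 8.93 to 37.5 CPM of mRNA in the controls of run 1 and 47.7 to 66.5 CPM in those of run 2. Its knockdown medians were 41.8, 64.6 and 60.0 CPM in runs 1, 2 and 3. The log2 fold change over all knockdowns was 0.07 ± 0.12 in RNA-seq (SE; edgeR adjusted p = 0.708) and -0.17 ± 0.098 in Ribo-seq (0.198), so neither passed the test. The lowest HBS1L footprint levels stood well below the controls. Both RPL24 libraries had 28.2 and 26.8 CPM where the 4 controls of the same run had 51.9, 54.8, 61.6 and 65.0 CPM, and the single RPL23A library had 37.8 CPM where the controls of run 2 had 67.9 to 102 CPM. HBS1L mRNA in these RPL24 libraries was 25.3 and 27.2 CPM and lay inside the range of the run 1 controls.

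GTPBP2, a related GTPase, fell in mRNA and passed no test in footprints. Its mRNA was 69.1, 73.6, 60.7 and 71.7 CPM in the controls of run 1, 37.1 to 54.8 CPM (median 44.8) in run 2, and 39.3 and 42.1 CPM in run 3. Knockdown libraries had medians of 48.8, 34.5 and 32.4 CPM. Below every control of their run lay 27 of 30, 29 of 45 and 16 of 16 of them (background 26%, 27% and 44.5%). GTPBP2 mRNA fell by 0.37 ± 0.095 on the log2 scale (SE; edgeR quasi-likelihood adjusted p = 0.00167), by 0.42 with the run as a term (7.8e-05) and by 0.54 in run 1 alone (0.00854); runs 2 and 3 gave -0.34 (0.0936) and -0.35 (0.308). Its footprints, 13.2 to 25.6 CPM in controls and 9.45 to 28.7 CPM in knockdowns, overlapped and gave -0.12 ± 0.10 (adjusted p = 0.408). The lowest GTPBP2 values of the 75 targets were those of the RPL30 knockdown, at 20.7 CPM of mRNA and 9.45 CPM of footprints. Transcripts of POLH and MAD2L1BP overlap GTPBP2 on chromosome 6.

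GTPBP1, which has 26.7 to 49.5 CPM of mRNA in controls and 14.3 to 43.1 CPM in knockdowns, gave -0.17 ± 0.075 (SE; edgeR quasi-likelihood adjusted p = 0.0821). It passed the test with the run as a term (-0.22, edgeR adjusted p = 0.00941; -0.18 and 0.0458 without control 20_2). No library of runs 1 and 2 exceeded all controls of its run, while 15 of 30 and 29 of 45 fell below them (background 26% and 27%); in run 3, 5 of 16 were above both controls and 10 of 16 below (background 42.6% and 44.5%). Footprints gave -0.10 ± 0.10. The GTPBP1 footprint level was lowest in the RPS28 knockdown, at 7.61 CPM, where the controls had 14.5 to 28.4 CPM.

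The promoters of the genes whose mRNA was called are shown because the change was read at the mRNA level; ASCC3 has no entry in the table used. Each is the RefSeq window of 300 bases on GRCh38.p14 from 250 bases before to 50 bases after an annotated start, written 5′ to 3′ on the strand of the gene: PELO at chr5:52787666-52787965 (+), GTPBP2 at chr6:43629215-43629514 (-) and, for a second start, at chr6:43627292-43627591 (-), and GIGYF2 at chr2:232697081-232697380 (+). Capitals mark a match to a searched motif, of which these windows hold 1, the E-box CACGTG in GIGYF2.
PELO: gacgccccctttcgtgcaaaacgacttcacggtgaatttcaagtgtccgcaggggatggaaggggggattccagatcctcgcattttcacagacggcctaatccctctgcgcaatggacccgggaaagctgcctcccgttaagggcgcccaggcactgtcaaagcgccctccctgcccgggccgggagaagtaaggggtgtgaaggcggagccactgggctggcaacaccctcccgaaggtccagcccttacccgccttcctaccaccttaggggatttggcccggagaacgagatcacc
GTPBP2, start 1: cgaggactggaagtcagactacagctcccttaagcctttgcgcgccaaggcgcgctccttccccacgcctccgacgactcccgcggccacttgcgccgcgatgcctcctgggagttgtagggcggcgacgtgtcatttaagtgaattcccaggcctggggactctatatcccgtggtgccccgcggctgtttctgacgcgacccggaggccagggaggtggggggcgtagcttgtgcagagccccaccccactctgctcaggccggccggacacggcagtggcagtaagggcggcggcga
GTPBP2, start 2: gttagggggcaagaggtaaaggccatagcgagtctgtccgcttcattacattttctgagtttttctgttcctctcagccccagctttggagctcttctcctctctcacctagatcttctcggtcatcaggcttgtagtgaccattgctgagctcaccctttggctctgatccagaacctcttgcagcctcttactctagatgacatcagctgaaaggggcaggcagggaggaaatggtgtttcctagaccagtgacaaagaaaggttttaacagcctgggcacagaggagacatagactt
GIGYF2: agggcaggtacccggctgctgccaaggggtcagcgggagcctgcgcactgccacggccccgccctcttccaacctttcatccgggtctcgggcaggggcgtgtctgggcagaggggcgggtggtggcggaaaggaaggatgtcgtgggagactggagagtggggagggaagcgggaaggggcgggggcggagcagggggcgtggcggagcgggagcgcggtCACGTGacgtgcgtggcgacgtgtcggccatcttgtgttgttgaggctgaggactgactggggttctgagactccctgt

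Motifs were searched on both strands in the 10 windows of 9 members, and the share of all 34796 distinct RefSeq windows of that length is given beside each. The CHOP-ATF4 composite element (TGATGNAAN, 3.63% of windows) and the TATA box (TATAAA, 11.6%) matched in none of the members' windows. The E-box (CACGTG, 7.20%) matched in GIGYF2 at position -29 from the start. The ETS element (CCGGAAG, 10.2%) matched in GCN1 at -25 and -14 and in LTN1 at 6, and the CCAAT box (CCAAT, 34.6%) in NEMF at -81, in LTN1 at -191 and -174, and in GTPBP1 at -168. The windows of PELO, HBS1L, GTPBP2 and ABCE1 held no match. A match says only that these letters are present.

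NEMF, which marks large subunits with unfinished peptides, rose in footprints and passed no test in mRNA, where the title sets differed in sign. Its mRNA ran from 4.36 to 40.7 CPM in the 11 controls and from 5.40 to 50.4 CPM in knockdowns and gave -0.19 ± 0.18 (SE; edgeR adjusted p = 0.447). Per target, the mean log2 ratio of NEMF mRNA to controls was -0.58 ± 0.55 (SD, n = 4 large-subunit targets) and -0.83 ± 0.75 (n = 12 small-subunit targets) in the numbered set, and 0.33 ± 0.33 (n = 40) and 0.39 ± 0.33 (n = 19) in the other. Against the controls of their run, 4 of 30, 25 of 45 and 11 of 16 knockdown libraries were above all of them in NEMF mRNA (background 25.7%, 25.9% and 42.6%). Below all of them were 0, 0 and 3 (background 26%, 27% and 44.5%). The ratios by title set mix runs. Of the numbered controls 2 stand in run 3, and 15 unnumbered targets of run 3 were set against run 2 controls. Against the 4 controls of run 1, its 15 targets had a median NEMF mRNA log2 fold change of -0.44 (4 above 0, 11 below). Targets with 1 library, against controls of their own run, had median log2 ratios of 0.30 in run 2 and 0.11 in run 3. NEMF footprints were 73.0, 76.7, 71.1 and 79.5 CPM in the controls of run 1, 66.4 to 79.2 CPM in run 2 (median 73.7), and 89.2 and 80.9 CPM in run 3. Knockdown libraries had 64.7 to 137 CPM (median 102) in run 1, 45.6 to 149 CPM (median 88.8) in run 2 and 40.1 to 109 CPM (median 92.2) in run 3. They exceeded all controls of their run in 25 of 30, 33 of 45 and 10 of 16 libraries (background 33.8%, 26.2% and 43.0%). The footprint level of NEMF rose by a log2 fold change of 0.33 ± 0.10 (SE; edgeR quasi-likelihood adjusted p = 0.0122). It was 0.41 in run 1 (edgeR adjusted p = 0.0328; 0.0605 without control 20_2), 0.34 in run 2 (0.239) and 0.02 in run 3 (0.976). The translation efficiency of NEMF gave 0.50 ± 0.21 (edgeR adjusted p = 0.743), and 0.49, 0.07 and -0.06 in runs 1, 2 and 3; the part of the wide mRNA range of the run 1 controls in these values was not tested.

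LTN1, the ligase that NEMF recruits, passed no test over all knockdowns. Footprints gave -0.13 ± 0.085 (SE; edgeR adjusted p = 0.242), with controls at 48.0 to 52.0, 62.2 to 70.3 and 72.1 to 76.9 CPM in the 3 runs and knockdown medians of 50.7, 55.9 and 63.5 CPM. In runs 2 and 3, 34 of 45 and 13 of 16 knockdown libraries were below all controls (background 25.9% and 42.7%). In run 1, 12 of 30 were below and 12 above, near the background of 34% and 33.8%. LTN1 mRNA gave -0.17 ± 0.16 (adjusted p = 0.442).

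GIGYF2 mRNA was 58.8, 59.8, 49.8 and 39.5 CPM in the controls of run 1. There the knockdown libraries had 51.2 to 82.8 CPM (median 69.1), and 25 of 30 lay above all controls (background 25.7%). In run 2 the controls had 49.4 to 67.3 CPM and the knockdowns 28.4 to 75.0 CPM, with 6 of 45 libraries above and 9 below (background 25.9% and 27%). In run 3, 8 of 16 were above and 6 below (background 42.6% and 44.5%). The groups overlapped in each run. GIGYF2 mRNA rose by 0.21 ± 0.079 over all libraries (SE; edgeR quasi-likelihood adjusted p = 0.0360); it was 0.42 in run 1 (0.0161), 0.05 in run 2 and 0.01 in run 3, and with the run as a term it was 0.17 (0.0715). Without control 20_2 the run 1 value was 0.31 (0.177). Footprints gave 0.18 ± 0.11 (0.232). GIGYF2 had its lowest levels of all targets, in both assays, after the siRNAs against RPL26 (28.4 CPM of mRNA, 20.3 CPM of footprints) and RPS18 (32.8 and 22.9 CPM). These are 1 library each, and their log2 ratios to the controls of the title set were -0.93 and -0.73 in RNA-seq and -1.69 and -1.53 in Ribo-seq.

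GCN1, the collision sensor, passed neither test. Over all runs it had 153 to 383 CPM in controls and 139 to 337 CPM in knockdowns in RNA-seq, and 175 to 351 against 131 to 406 CPM in Ribo-seq. These ranges pool runs whose control means in RNA-seq were 299, 179 and 171 CPM. In run 3, 13 of 16 knockdown libraries were above both controls and 3 below in each assay (background above 42.6% and 43.0%). In Ribo-seq of run 1, 11 of 30 were above and 14 below (background 33.8% and 34%). The log2 fold changes of GCN1 were 0.10 ± 0.075 (SE; edgeR adjusted p = 0.338) and 0.11 ± 0.087. ABCE1, the splitting ATPase, gave -0.22 ± 0.16 in RNA-seq (0.310) and -0.17 ± 0.096 in Ribo-seq (0.190). The runs differed in direction for ABCE1 footprints. In run 1, 19 of 30 knockdown libraries were above all controls and 7 below (background 33.8% and 34%). In run 2, 3 of 45 were above and 11 below (background 26.2% and 25.9%). In run 3, 1 of 16 was above and 14 below (background 43.0% and 42.7%). The ABCE1 level was lowest in Ribo-seq after loss of RPL21, at 47.0 and 46.4 CPM in the 2 libraries where the 4 controls of the same run had 74.5 to 80.8 CPM. ABCE1 mRNA in these libraries was 14.8 and 14.1 CPM, below all 4 controls of run 1 (17.5 to 67.5 CPM).

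Knockdowns of large-subunit proteins were then compared with knockdowns of small-subunit proteins, with the title set as a term. ASCC3 mRNA, PELO mRNA and GTPBP2 mRNA were higher after loss of large-subunit proteins, NEMF footprints were higher too, and HBS1L footprints were lower. In RNA-seq 3 of 10 members were called higher and 0 lower (15.2% and 16.4% of all genes), in Ribo-seq 1 higher and 1 lower (10.9% and 11.2%), and for translation efficiency 0 higher and 1 lower (1.07% and 2.52%). Without adjustment 3, 4 and 2 members had a p under 0.05. The members' median difference was 0.08, 0.09 and 0.04, beside -0.0060, -0.0077 and 0.0048 over all genes. The title sets hold the subunits unevenly, with 4 large- and 12 small-subunit targets in the numbered set and 40 and 19 in the other.

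HBS1L gave the one call for translation efficiency, which was lost when 1 library per target was used (-0.32, edgeR adjusted p = 0.101): the ratio of footprints to mRNA was lower after loss of large- than of small-subunit proteins by 0.34 ± 0.11 on the log2 scale (SE; edgeR interaction, adjusted p = 0.0443). Per target, 41 of 44 large-subunit targets had a log2 ratio below 0 to the mean of the controls of their title set (median -0.33), and 15 of 31 small-subunit targets did. These counts depend on the controls used. Against the 4 controls of run 1, the limma value was below 0 for 14 of the 15 targets of that run, of both subunits (median -0.89). Against the 2 controls of run 3, the 15 targets of that run with 1 library had a median of 0.04 (9 above 0, 6 below). The direction of the subunit difference was the same in both title sets: -0.55 ± 0.14 (SD, n = 4 targets) against -0.10 ± 0.41 (n = 12) in the numbered set, and -0.35 ± 0.28 (n = 40) against -0.01 ± 0.14 (n = 19) in the other. Among targets with 1 library, 13 of 40 large-subunit and 0 of 19 small-subunit targets lay below all 5 controls, beside 14.9% of all gene-by-target values. These controls all stand in run 2, as do 44 of the 59 targets. With the ratio taken per lysate the difference was -0.36 ± 0.085 (SE; limma adjusted p = 0.000918), and with the run as a term -0.31 (edgeR adjusted p = 0.0499). Within runs it was -0.41, -0.36 and -0.14, and edgeR called none of the 3 (adjusted p = 0.873, 0.183 and 1).

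The components of this ratio had opposite signs. HBS1L footprints differed by -0.20 ± 0.068 (SE; edgeR quasi-likelihood adjusted p = 0.0247), at medians of 52.2 and 62.9 CPM (large, small) in run 1, 75.5 and 88.4 CPM in run 2 and 85.5 and 84.0 CPM in run 3. HBS1L mRNA differed by 0.14 ± 0.081, which did not pass the test, and its medians were 44.0 and 40.9, 66.3 and 59.4, and 63.7 and 58.8 CPM. The lowest HBS1L efficiency ratios were those of RPLP2 (-0.95) and RPL7 (-0.91), 2 large-subunit targets with 1 library each.

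NEMF footprints were 0.29 ± 0.066 higher after loss of large-subunit proteins (SE; edgeR quasi-likelihood adjusted p = 0.000597), with medians of 107 against 97.3 CPM in run 1, 95.1 against 76.9 CPM in run 2 and 99.1 against 86.2 CPM in run 3. Of 44 large-subunit targets 42 had a log2 ratio above 0 to the mean of the controls of their title set (median 0.40). Of 31 small-subunit targets 23 did (0.18). Over all genes these medians were -0.0070 and -0.025. The counts set 15 targets of run 3 against controls of run 2. Against the 2 controls of run 3, 11 of these 15 were above 0 and 4 below. The highest NEMF footprint ratio was that of RPL9 (1.03) and the lowest that of RPS4Y (-0.85), each 1 library. With the run as a term the subunit difference in NEMF was 0.29 (edgeR adjusted p = 0.000844), and within runs 0.24, 0.31 and 0.34, none of which passed the test alone.

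ASCC3 mRNA differed by 0.38 ± 0.11 (SE; edgeR quasi-likelihood adjusted p = 0.00380), at medians of 97.7 against 63.8 CPM in run 1, 131 against 93.2 CPM in run 2 and 134 against 107 CPM in run 3. Both subunits' knockdowns were above control: 41 of 44 large- and 26 of 31 small-subunit targets, with median log2 ratios of 0.93 and 0.59. The difference was 0.42 with the run as a term (edgeR adjusted p = 0.000791). In footprints the ASCC3 difference, 0.18 ± 0.088, did not pass the test. PELO mRNA was 0.18 ± 0.047 higher after loss of large-subunit proteins (edgeR adjusted p = 0.00121) and 0.14 with the run as a term (0.00920). Its log2 ratio to the mean control was below 0 for 30 of 31 small-subunit targets and 30 of 44 large-subunit targets. GTPBP2 mRNA was 0.17 ± 0.068 higher (edgeR adjusted p = 0.0400), a call lost with the run as a term (0.14, 0.0741), and the value was -0.0051 without any covariate.

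**Figure D3:**
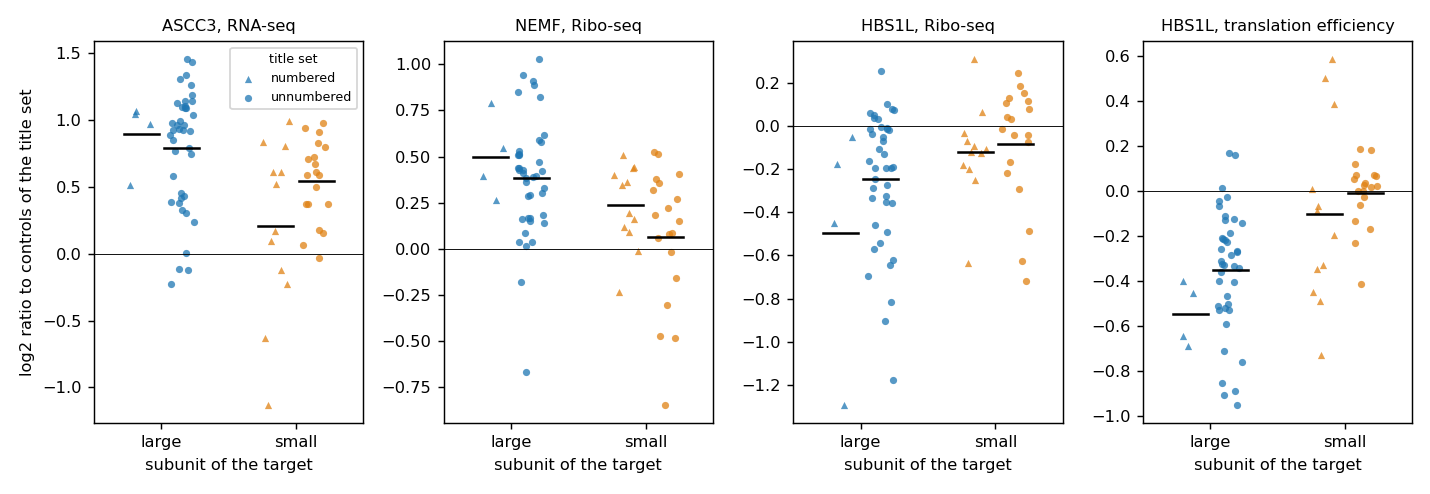
Log2 ratio to the controls of the title set for each target, large-subunit beside small-subunit targets, for ASCC3 in RNA-seq, NEMF in Ribo-seq, and HBS1L in Ribo-seq and for translation efficiency; triangles are targets of the numbered title set, circles those of the unnumbered set, and bars are the means of each set. For HBS1L translation efficiency 41 of 44 large-subunit targets lie below 0, against 15 of 31 small-subunit targets. Of the circles, 15 are targets of run 3 set against controls of run 2.

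The 16 targets with 2 libraries allow a test per target against the controls of the title set. In Ribo-seq ASCC3 was called higher for 10 of 16 targets and lower for 0, NEMF higher for 9 and GIGYF2 for 5, where 12.5% of gene-by-target tests were called higher; PELO was called lower for 12 of 16, where 14.5% were called lower. In RNA-seq GIGYF2 was higher for 7 targets and ASCC3 for 4 (background 11.4%), and GTPBP2 was lower for 6, PELO for 4, NEMF and ABCE1 for 3 each and ASCC3 for 1 (background 14%). For translation efficiency, tested with limma on the ratio per lysate, no member was called for any target, where 1.14% were called higher and 2.26% lower. Without control 20_2, 26 of these tests were called for translation efficiency and 60 in place of 33 in RNA-seq. A test of whether the 16 targets differ among themselves called 8 members in RNA-seq (79.6% of all genes), 10 in Ribo-seq (75.1%) and 2, NEMF and ABCE1, for translation efficiency (15.8%). Of these targets RPS16 has its libraries outside run 1. Among the 15 targets of run 1 the same test called every member in RNA-seq. For translation efficiency it then called PELO and NEMF (limma adjusted p = 0.0216 and 0.0425) and not ABCE1 (0.0788).

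The controls of the numbered title set include the 2 controls of run 3. Of the 16 targets, all but 1 (RPS16) have both libraries in run 1, where they were also set against the 4 controls of that run. ASCC3 footprints were then called higher for 14 of 15 targets and PELO footprints lower for 12, where 20.2% and 21.1% of all tests were called higher and lower. NEMF footprints were higher for 10 and GIGYF2 footprints for 6; GTPBP1 footprints were lower for 6 and GTPBP2 footprints for 3. LTN1 was higher for 3 and lower for 1, ABCE1 higher for 5 and lower for 1, and GCN1 higher for 4 and lower for 4. In RNA-seq PELO was lower for 13 targets and GTPBP2 for 12 (background 19%), and ASCC3 and GIGYF2 were higher for 9 each (background 15.5%). Against these controls NEMF and ABCE1 mRNA were lower for 1 target each and ASCC3 mRNA for 0.

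The RPL21 libraries had 179.8 and 191 CPM of ASCC3 footprints against 67.3 to 79.7 CPM in the 4 controls, a log2 fold change of 1.35 ± 0.11 (SE; edgeR quasi-likelihood adjusted p = 1.6e-11), and the RPL15 libraries gave 1.33. RPS3 was the target without a call, with ASCC3 footprints at 61.3 and 84.7 CPM. NEMF footprints were highest in the RPL15 libraries (135 and 137 CPM, log2 fold change 0.85, edgeR adjusted p = 1.5e-07). For PELO footprints the RPS15 libraries (49.5 and 48.5 CPM) gave a log2 fold change of -0.68. HBS1L footprints in the RPL24 libraries were lower by a log2 fold change of -1.09 ± 0.11 (edgeR adjusted p = 7.5e-09). In each of these cases both libraries of the target lay on the same side of all 4 controls, except RPS3 for ASCC3.

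**Figure D4:**
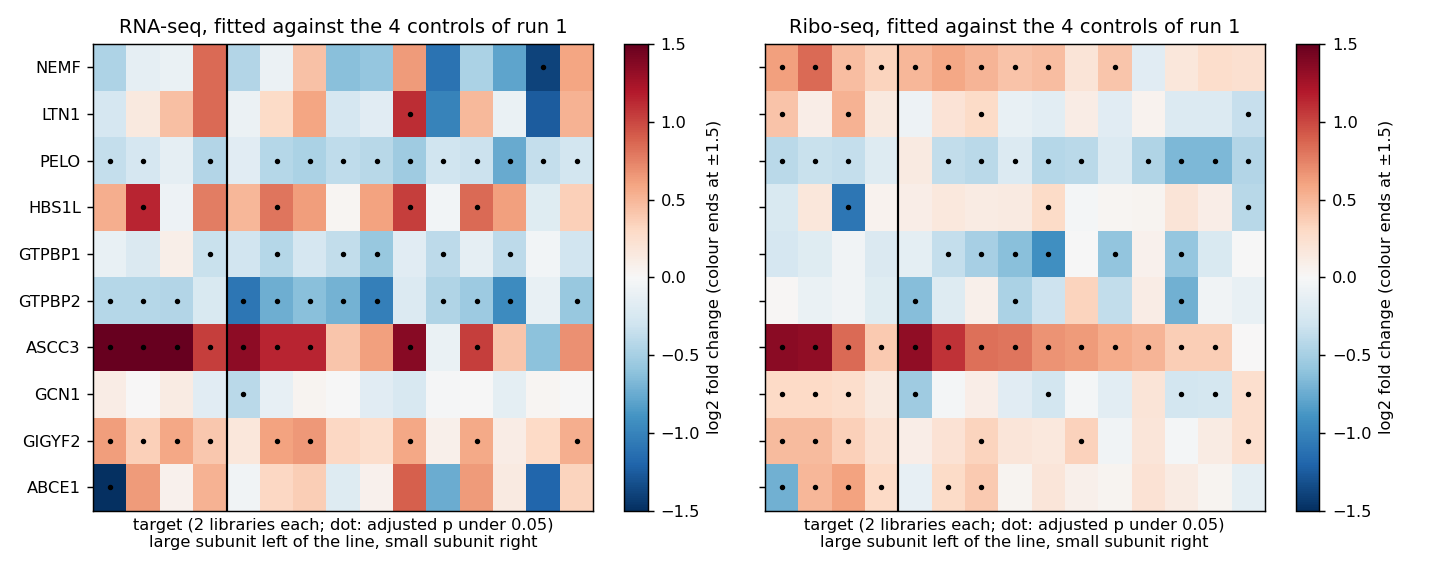
Log2 fold change of each member for each of the 15 targets of run 1 against the 4 controls of that run, in RNA-seq and Ribo-seq; dots mark an adjusted p under 0.05, and the colour ends at ±1.5. Large-subunit targets are left of the line, and targets of each subunit are ordered by ASCC3 in Ribo-seq, highest first. The ASCC3 row of Ribo-seq has a dot for 14 of 15 targets on the higher side and the PELO row for 12 on the lower side.

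The 59 targets with 1 library cannot be tested and are described by whether they lie beyond all 5 controls of their title set. These controls all stand in run 2, as do 44 of the targets, while 15 targets stand in run 3, whose 2 controls belong to the numbered set. Against those 2 controls, the median log2 ratio of the 15 targets was 0.11 for NEMF mRNA and 0.04 for HBS1L translation efficiency (9 above 0, 6 below), where the 44 targets of run 2 had medians of 0.30 and -0.30 against their own. Over the 590 pairs of member and target, 24.4% were above all controls and 19.7% below in RNA-seq, beside 26.3% and 27.6% over all genes; 27.5% and 21.9% in Ribo-seq (25.9% and 25.3%); and 14.1% and 13.7% for translation efficiency (16.3% and 14.9%). The members' share was at or below that of all genes in 5 of these 6 cases. Single members stood at the ends: ASCC3 was above all controls for 51 of 59 targets in RNA-seq and for 56 in Ribo-seq. NEMF was above for 38 in RNA-seq, with 0 below, and for 44 in Ribo-seq, with 7 below. GTPBP2 mRNA was below for 42 targets, LTN1 footprints for 38, GTPBP1 mRNA for 36 and PELO mRNA for 25. GTPBP2 translation efficiency was above all controls for 25 targets and below for 0.

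**Figure D5:**
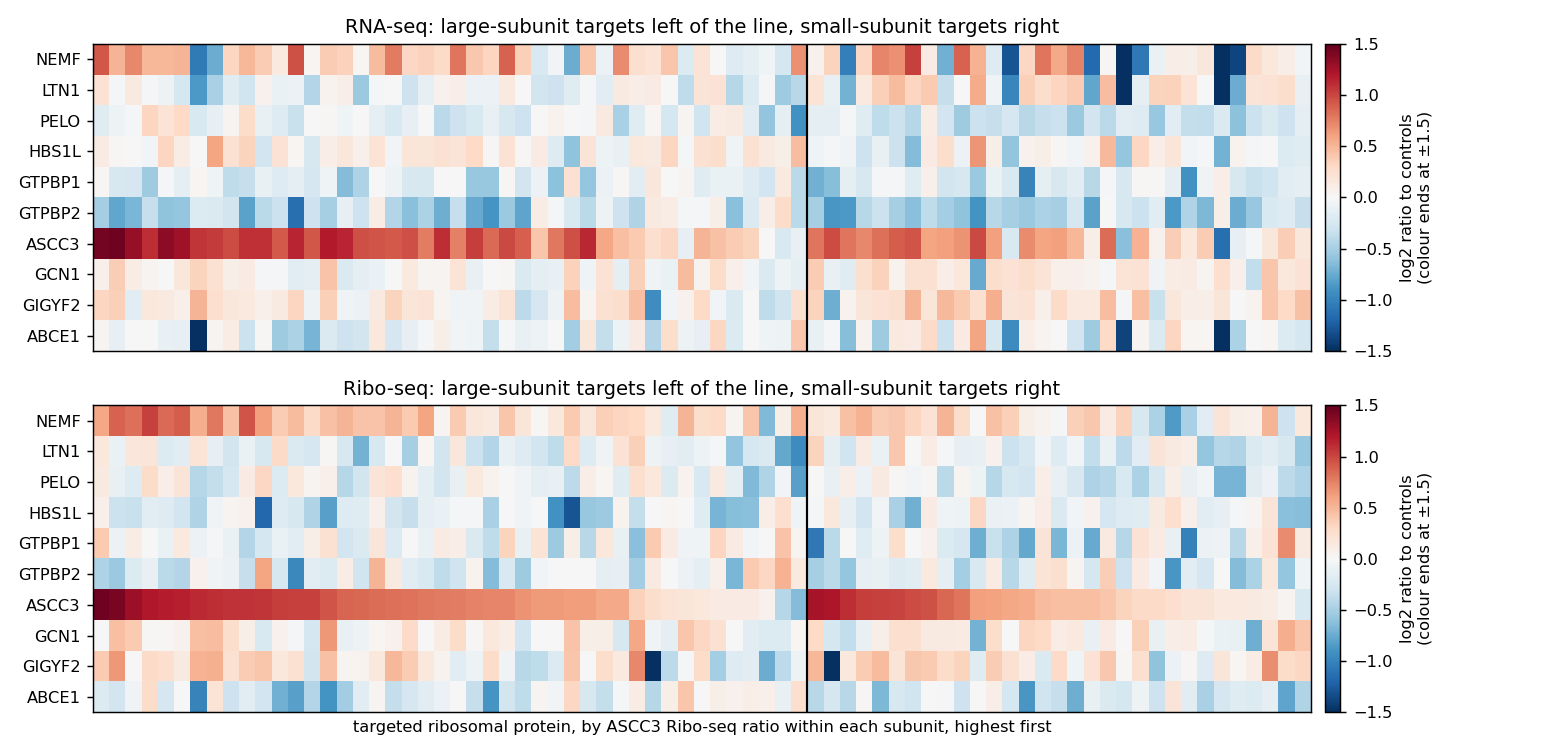
Log2 ratio of each member to its mean control level within the title set, for all 75 targets, large-subunit targets left of the line and small-subunit targets right, in RNA-seq and Ribo-seq, ordered within each subunit by the ASCC3 Ribo-seq ratio, highest first; red is above and blue below the controls, and the colour ends at ±1.5. The ASCC3 row is above 0 for 67 of 75 targets in RNA-seq and for 72 in Ribo-seq, and the GTPBP2 row is below 0 for 67 targets in RNA-seq.

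Of 36 further genes of the same pathway, all 36 tested, 6 were called higher and 4 lower over all knockdowns in RNA-seq, 5 and 2 in Ribo-seq, and 0 for translation efficiency. These counts stand beside 13.4% and 17.2% of all genes called higher and lower in RNA-seq and 13.2% and 13.5% in Ribo-seq. Of the 3 partners of ASCC3 in the ASC-1 complex, ASCC1 and ASCC2 rose in both assays. ASCC2, the subunit that reads ubiquitin chains on collided ribosomes, had 26.6 to 32.6 CPM of footprints in controls, and medians of 44.1 and 45.0 CPM after loss of large- and small-subunit proteins. Its log2 fold change was 0.60 ± 0.094 in Ribo-seq (SE; edgeR quasi-likelihood adjusted p = 3.5e-07) and 0.51 ± 0.075 in RNA-seq (5.9e-08). ASCC1 rose by 0.36 ± 0.10 in Ribo-seq (edgeR adjusted p = 0.00420) and by 0.46 ± 0.086 in RNA-seq (1.8e-05). TRIP4 passed neither test.

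Among 8 genes for partners of NEMF and LTN1 and for peptide release, KLHDC10 and RCHY1, ubiquitin ligase components that recognise the alanine tails made by NEMF, rose in both assays. KLHDC10 had 20.9 to 40.1 CPM of mRNA in controls and medians of 59.3 and 58.3 CPM after loss of large- and small-subunit proteins, a log2 fold change of 0.83 ± 0.11 (SE; edgeR adjusted p = 1.6e-09), and 0.73 ± 0.12 in footprints. RCHY1 gave 0.33 in mRNA (edgeR adjusted p = 0.0307) and 0.34 in footprints. ANKZF1 and NPLOC4 fell in mRNA (-0.26 and -0.20) and VCP in footprints (-0.15, edgeR adjusted p = 0.0388). Of the 5 genes for decay of stalled mRNA, SKIC2 rose in both assays (0.20 and 0.30). Of 13 genes for collision sensing and 40S ubiquitination, EIF2AK4, which encodes the kinase GCN2, rose in mRNA (0.22, edgeR adjusted p = 0.0356). RNF10 and OTUD3 fell in mRNA (-0.21 and -0.24, edgeR adjusted p = 0.0220 and 0.0490) and MAP3K20 fell in footprints (-0.28, 0.0271). OTUD3 footprints had the other sign and passed no test (0.30, edgeR adjusted p = 0.324). Values by run are not reported here for these genes. No gene of the termination or DRG lists was called.

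Between subunits, 6 of the 36 genes were higher and 5 lower after loss of large-subunit proteins in RNA-seq, 5 and 1 in Ribo-seq, and 3 and 1 for translation efficiency. Of all genes, 15.2% were higher and 16.4% lower in RNA-seq, 10.9% and 11.2% in Ribo-seq, and 1.07% and 2.52% for translation efficiency. EDF1 and EIF4E2, the partner of GIGYF2, were higher in footprints by 0.31 each. RACK1 footprints were lower (-0.27) and RACK1 mRNA higher (0.41). The largest difference was in RNF10, a ubiquitin ligase of 40S proteins, with median footprint levels of 51.7 CPM after loss of large-subunit proteins, 16.2 CPM after loss of small-subunit proteins and 35 CPM in controls, a difference of 1.59 ± 0.094 (SE; edgeR adjusted p = 7.2e-28).

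Patterns over the 75 targets were compared as a description, by Pearson's r of mean log2 CPM per target less the mean of the title set; the targets share controls, depth and run, and no test applies. The RNA-seq pattern of NEMF was most like that of NIPBL (r = 0.893) and ESF1 (0.892), ABCE1 like PNPT1 (0.856) and NAA15 (0.840), LTN1 like ENSG00000283782, which has no symbol in the table used (0.852), and RLF (0.845), and ASCC3 like IKBIP (0.825) and LACC1 (0.812). GIGYF2 was nearest BMS1 (0.754), GCN1 nearest GTF3C1 (0.742), HBS1L nearest SUB1 (0.703) and COPS2 (0.697), PELO nearest SSR4 (0.672) and BYSL (0.671), GTPBP2 nearest ISG20 (0.670) and GTPBP1 nearest NAA60 (0.587). Among the 45 pairs of members the median r was 0.0233 in RNA-seq and 0.0122 in Ribo-seq. The highest was 0.703 in RNA-seq and 0.567 in Ribo-seq, the latter between NEMF and ASCC3. The r values of NEMF, LTN1, HBS1L, ASCC3 and ABCE1 come from genes whose run 1 controls also spread widely in RNA-seq. The part of that spread in these r values was not tested.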

How the data were processed

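RNA-seq and Ribo-seq were measured in A549 cells (11 control and 91 knockdown libraries per assay). The deposited tables hold whole-number counts per Ensembl gene; reads were handled with bcl2fastq 2.20.0.422, cutadapt 1.8.1 and STAR 2.6.1 against GRCh38, per the submitters' processing notes, with the counting tool, annotation and strand setting not given in the sources used here. Footprints were selected by size on a gel and rRNA was removed by kit, per the labels' protocols. Other libraries named in the design text are not analysed here.

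From these counts, CPM was computed with TMM library sizes. The filter kept genes that reached 1 CPM in 11 or more libraries, and these were tested in R 4.3.3 with edgeR 4.0.16 (glmQLFit and glmQLFTest, title set as a term, Benjamini-Hochberg adjustment over all genes, threshold 0.05). Translation efficiency was the assay-by-group interaction over 12480 genes; for the 16 targets with 2 libraries it was a limma 3.58.1 fit of log2 ratios per lysate (prior count 2). Ratios per target are log2(CPM + 0.5) less the log of the mean control CPM plus 0.5 of the title set. The tests were tried on simulated counts with known changes. DESeq2 1.42.0, other scalings, filters and terms, and single runs, title sets and subunits were alternatives; those by run were chosen after seeing the data. Depth was 18796932 to 63569574 counts per RNA-seq library and 7771312 to 57215307 per Ribo-seq library; floors cover counting error only.

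The members, gene lists and rules were chosen with earlier results of these data known. All members are described; of the wider list at most the 3 called genes with the largest change each way per comparison were to be named, and of the targets the 2 highest and 2 lowest per member and assay. NPLOC4, RCHY1, EIF2AK4, VCP and SKIC2, and single targets within run 1 (RPL15, RPS3), were named after their values were seen; some targets are not reported here by name. The aliquots are paired by lysate, per the labels' protocols: over 43 lysates with a replicate the deviations in both assays had a median r of 0.0900.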

Additional observations from a re-analysis of the deposited data

Results flagged for a closer look

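Among the 5 unnumbered controls, library NC1 stood apart for GIGYF2 mRNA at 67.3 CPM (next 53.1 CPM) and for LTN1 footprints at 70.3 CPM (next 64.0 CPM), and library NC7 for PELO footprints at 72.9 CPM (next 79.7 CPM). Each gap, relative to the range of its group, exceeded the limit of Dixon's test; 40 groups of controls were examined, and chance passes this limit in about 1 of 20.

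Differences between large- and small-subunit knockdowns that passed the edgeR test were 0.38 for ASCC3 mRNA, 0.18 for PELO mRNA, 0.17 for GTPBP2 mRNA, 0.29 for NEMF footprints, -0.20 for HBS1L footprints and -0.34 for HBS1L translation efficiency, as log2 values, large less small.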

How the results depend on the processing

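Counts of members called by the tests (of 10) moved by over 1.5 times in these cases; the cause was not tested, beyond the fewer libraries of single runs, sets and subunits. All knockdowns against control called 4 members in RNA-seq, against 2 in the numbered or the unnumbered titles alone, 1 in run 2 or in run 1 without control 20_2, and 0 in run 3; in Ribo-seq 3 became 1 in run 2 or the unnumbered titles and 0 in run 3. The subunit comparison called 3 in RNA-seq, against 6 with no covariate, 1 in run 1 (with or without control 20_2) or run 2, and 0 in run 3 or the numbered titles; in Ribo-seq 2 became 4 with no covariate, 1 with 1 library per target or in the unnumbered titles, and 0 in runs 2 and 3. For translation efficiency 1 became 0 with 1 library per target, in the numbered titles and in each run (run 1 also without control 20_2), and 3 with the replicate block by lysate, also with the run as a term and without control 20_2. GTPBP2 mRNA between subunits turned to -0.0051 with no covariate and -0.0148 in run 3, and HBS1L footprints to 0.0128 in run 3.

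Of tests per member and target, 33 were called in RNA-seq, against 63 with no filter, 60 without control 20_2, 57 in run 1 and 71 in run 1 without that control; for translation efficiency 0 became 26 without control 20_2, 5 in run 1, 24 in run 1 without it, and 3 in the edgeR interaction. Leaving out a replicate left 0 to 0 calls in RNA-seq and 7 to 9 of 53 in Ribo-seq; the lone library was then assumed to vary like the other groups. Numbers in titles did not pair the libraries (median r -0.0165 in RNA-seq over 105 pairs); a replicate block by number gave 67 calls in RNA-seq and 11 for translation efficiency. Differences among the 16 targets were called for 8 members in RNA-seq (1 in large-subunit targets alone), 10 in Ribo-seq (4) and 2 for translation efficiency (0; 4 in small-subunit targets, 1 with no filter, 7 without control 20_2, 9 in run 1 without it). Among single members, GIGYF2 mRNA lost its call without control 20_2 (adjusted p = 0.117) and with 1 library per target (0.0628), PELO mRNA with no filter (0.142) and ASCC3 mRNA in the numbered titles alone (0.261). Of 860 member values under alternatives, 104 had another sign and were called in neither fit. Depth limits GTPBP1 and GTPBP2 footprints most, which had as few as 128 and 144 counts.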
